A study of Homo sapiens with 8 samples.

Results

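Ribosome-protected mRNA fragments (footprints) of human HEK293T cells kept in leucine-deficient medium (Leu-) were set directly against those of cells kept in arginine-deficient medium (Arg-), both overnight and both collected without cycloheximide, a drug that arrests elongating ribosomes. These were 2 of the 8 libraries of the series, with 1 library per condition and therefore no replicate and no test, and every value below describes these libraries. HEK293T is an established human embryonic kidney line made with the SV40 large T antigen. The base medium of all cells came without sulfur amino acids, histidine, leucine and arginine, and each of these was restored except the amino acid withheld, with dialysed serum. The same design held cells in sufficient medium (Suff) and in methionine-deficient medium (Met-), and a second set of 4 libraries from cells given cycloheximide. A gene was represented by its highest transcript in each library, and the members were the 7725 genes, of 11354 listed in either library, whose mean density in the pair was at least 10 RPKM, a read density per unit of coding length and of library size. Ratios are log2((RPKM in Leu- + 1)/(RPKM in Arg- + 1)), so a positive value is a higher density in leucine-deficient cells, and a gene not listed in 1 library counted as 0 there, which was the case for 20 of the 7725.

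Footprint density on a coding sequence counts the ribosomes found on an mRNA, and so depends on how much of the mRNA the cell holds, how often ribosomes start on it and how long they stay. Leucine and arginine are sensed upstream of mTORC1, the kinase complex that controls growth, by different proteins: Sestrins and leucyl-tRNA synthetase for leucine, CASTOR proteins and a lysosomal transporter for arginine. When mTORC1 is off, mRNAs that begin with a terminal oligopyrimidine (TOP) tract, chiefly those of ribosomal proteins and translation factors, lose ribosomes. Lack of either amino acid also leaves transfer RNAs uncharged, which activates the kinase GCN2 and, through eIF2, the transcription factors ATF4 and CHOP with their targets. A ribosome can in addition wait at codons whose tRNA is uncharged, and leucine and arginine each have 6 codons.

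The libraries were close in depth, with 1496852 reads on coding sequences in Leu- and 1610707 in Arg-. Because reads are whole, RPKM times coding length moves in steps of 1 read, and 97.2% of the matched transcripts of each library lay within 0.01 of a step, which gave their reads. The 50 densest mRNAs took 30.4% of the summed RPKM in Arg-, 19.8% in Leu-, 20.7% in Suff and 17.7% in Met-. RPKM is a share of a library, so a larger share on some mRNAs leaves less for all others. The cell line was checked with 14 genes of its kidney and neuronal lineage, of which 8 were listed in Arg- and 9 in Leu-, with summed levels of 162 and 163 RPKM. Of 17 genes of blood, liver, stromal and endothelial cells, 1 was listed in Arg- and 2 in Leu-, with summed levels of 1.84 and 7.54 RPKM.

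Most mRNAs had similar densities in both deficiencies. The median ratio was 0.15 with an SD of 0.54 over mRNAs, and 94.99% lay within 2-fold. The levels correlated across mRNAs with a Pearson r of 0.95 on the log2 scale and a Spearman rho of 0.94, where mRNAs are not independent replicates. At least 2-fold higher in Leu- were 282 mRNAs (3.65%) and at least 2-fold lower 105 (1.36%). Centring the ratios on their median changed this split to 169 higher and 163 lower, so the excess of higher mRNAs went with the shift of the whole distribution by 0.15, and group medians below are also given relative to it. With only mRNAs listed in both libraries, the counts without centring were 274 higher and 93 lower. The 105 lower mRNAs held 14 replication-dependent histones and 15 TOP mRNAs, and the other 76 belonged to neither group. The 282 higher mRNAs held no histone, 1 ribosomal protein and 5 splicing proteins. A 95% exact (Clopper-Pearson) interval of the ratio of reads covers counting error only. It excluded equality for 249 of the 257 higher and 79 of the 83 lower mRNAs whose reads could be recovered in both libraries. These mRNAs were chosen for a 2-fold ratio of the same reads, so such high counts largely follow from the choice. At the limit of the filter, TOPORS was just inside with 8.73 RPKM in Leu- and 11.3 in Arg-, and ITPRID2 just outside with 10.96 and 9.03.

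**Figure D1:**
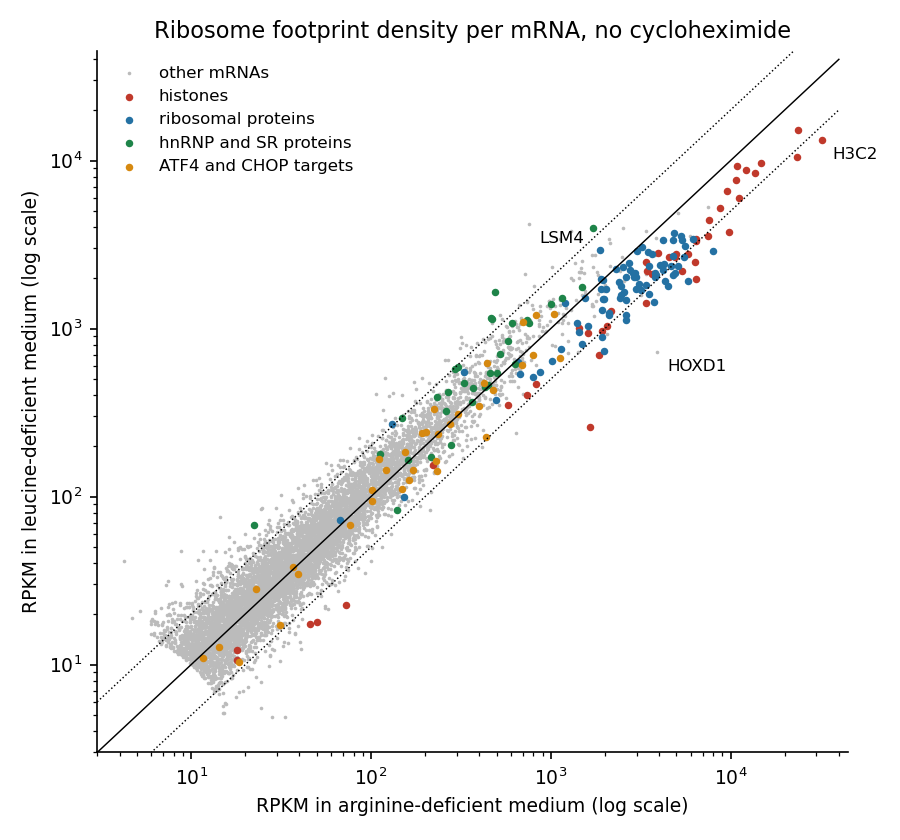
RPKM of each mRNA in arginine-deficient (horizontal) and leucine-deficient (vertical) medium without cycloheximide, both on log axes, for mRNAs listed in both libraries. The solid line marks equal densities and the dotted lines a 2-fold difference. Histones (red) and most ribosomal proteins (blue) lie below the solid line, hnRNP and SR proteins (green) mostly above it, and ATF4 and CHOP targets (orange) inside the dotted lines.

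The mRNAs of replication-dependent histones, which package newly made DNA, had the lowest median of the 40 gene lists examined. Of the 61 genes listed for this group, 48 were listed in either library and 44 were compared, and all 44 had a lower density in Leu- than in Arg-, where 36.5% of all mRNAs did. Their median ratio was -0.83, or -0.98 relative to the median of all mRNAs, and 14 of them were at least 2-fold lower against 1.36% of all mRNAs. Together they took 11.04% of the reads in Arg- (Wilson 95% interval 10.99% to 11.08%) and 6.197% in Leu- (6.16% to 6.24%), beside 4.51% in Suff and 2.29% in Met-. Arg- therefore held the largest share of histone footprints among the 4 libraries without cycloheximide, Leu- the second largest, and Met- the smallest. Against the same Suff library, the median histone ratio was 0.35 for Leu- and 1.25 for Arg-. Other genes of cell division gave medians close to that of all mRNAs. The median was 0.13 for 42 genes of the DNA replication machinery, with 1 at least 2-fold higher (RPA3, under 2-fold when centred) and none lower. It was 0.17 for 33 cyclins and mitotic genes, with none past 2-fold. Among all mRNAs 3.65% were at least 2-fold higher and 1.36% lower. Whether the share of cells in S phase moved with the histone values was not tested.

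Among the histones the H3 genes stood lowest. H3, like H4, is a core histone rich in arginine, while the linker histone H1 is rich in lysine. All 8 H3 genes compared were at least 2-fold lower in Leu-, with a median of -1.43 and a range from -2.66 to -1.15. The medians were -0.86 for 12 H2A genes, -0.80 for 13 H2B genes, -0.67 for 8 H4 genes and -0.48 for 3 linker H1 genes, with 2, 2, 2 and 0 past 2-fold. Arginine made up 13.2% of the codons of H3, 13.6% of H4, 9.23% of H2A at the median, 6.35% of H2B and 1.81% of H1, so H4 had the most arginine but not the lowest ratios. Over the 44 genes the Spearman rho of the ratio with the arginine share was -0.22 and with the number of arginine codons -0.44, where genes of 1 class share most of their sequence. The stretches of 10 codons with the most arginine are shown for a gene of each of 4 classes, with the arginine codons in capitals, to show how closely these codons can follow each other (GENCODE release 44, GRCh38, coding strand).
H3C2, codons 126 to 135, transcript at chr6:26031589-26032099 (minus strand): cagctcgctCGCCGCattCGCggagaaAGA
H4C3, codons 32 to 41, transcript at chr6:26103933-26104337 (plus strand): aaaccggctattCGCCGTttggctCGGCGC
H2BC11, codons 25 to 34, transcript at chr6:27125897-27132750 (minus strand): aaagacggcaagaagCGCaagCGCagcCGC
H1-2, codons 24 to 33, transcript at chr6:26055740-26056470 (minus strand): gcggccaaaaaggctgggggtacgcctCGT

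H3C2 was the densest mRNA of the Arg- library at 32195 RPKM, against 13197 in Leu-, 8476 in Suff and 4537 in Met-. Its density was 2.44-fold higher in Arg- than in Leu- (95% interval 2.38 to 2.50, counting error only). H3C13 had 1648 RPKM in Arg-, 260.1 in Leu-, 702 in Suff and 119.6 in Met-. Here Leu- was below Suff and Arg- above it, and Arg- exceeded Leu- 6.34-fold (5.36 to 7.53). H4C4 had 9756 RPKM in Arg- and 3760 in Leu-, close to the 3598 of Suff. H2AC7 had 6299 RPKM in Arg-, 2487 in Leu- and 1919 in Suff. The linker histone H1-2 differed least, with 10871 RPKM in Arg- and 9317 in Leu-, a ratio of -0.22. The H3 genes, H3C3, H3C8 and H3C11, were listed in Arg- alone at 15.1, 12.1 and 9.06 RPKM and did not reach the filter. Only uniquely mapped reads were counted, so footprints shared by near-identical histone genes were left out and the split between copies is uncertain.

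Ribosomal protein mRNAs were the other large group with lower densities in leucine-deficient cells. Of 80 compared, 74 were below 0, where 36.5% of all mRNAs were, with a median of -0.62 (-0.77 relative to all mRNAs). At least 2-fold lower were 14 (1.36% of all mRNAs) and at least 2-fold higher 1 (3.65%). The small (40S) and large (60S) subunits gave similar medians of -0.65 over 32 genes and -0.58 over 48. Among the 6 proteins of the 40S subunit past 2-fold lower were RPS2, RPS29, RPS28, RPS21 and RPS18, with ratios from -1.22 to -1.05. Among the 8 of the 60S subunit were RPL37, RPL39, RPL28, RPL13A, RPL32, RPL13 and RPL31, with ratios from -1.59 to -1.17. Ribosomal protein mRNAs took 11.9% of the reads in Arg- and 7.65% in Leu-, beside 13.9% in Suff and 9.88% in Met-. The Leu- library thus held the smallest share of the 4. Against the same Suff library their median was -0.91 in Leu-, with 33 of 80 at least 2-fold lower (2.12% of all mRNAs), and -0.27 in Arg-, with 5 of 80 (6.05%).

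RPL37 had 5790 RPKM in Arg- and 1922 in Leu-, with 4537 in Suff and 3669 in Met-. Arg- exceeded Leu- 3.01-fold (2.79 to 3.26), and Leu- was the lowest of the 4 libraries. RPL39, the shortest of these 14 coding sequences with 51 codons, had 7939.7 RPKM in Arg-, 2912 in Leu-, 6958 in Suff and 8204 in Met-. Again only Leu- stood apart, and Arg- exceeded it 2.73-fold (2.50 to 2.98). The ribosomal protein past 2-fold higher, RPS27L, is a p53-induced relative of RPS27 and had 131 RPKM in Arg- and 271 in Leu-, a ratio of 1.04 that fell under 2-fold when ratios were centred.

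The TOP tract was read at the annotated start of each transcript as a C followed by at least 4 bases that are each C or T. It stood at 53 of the 105 mRNAs of the TOP lists, at 8 of their 15 that were at least 2-fold lower, and at 5.28% of 7479 mRNAs compared that had a sequence. Within the TOP lists the median ratio was -0.52 with the tract and -0.49 without it, so the annotated start did not separate them. The first 24 bases of 4 of the mRNAs past 2-fold show the tract in capitals (GENCODE release 44, GRCh38).
RPL37, chr5:40825262-40835222 (minus strand): CTCTTCCggtctttctggtctcgg
RPL39, chrX:119786504-119791630 (minus strand): CCCTCCTCTTCCTTTCTCCgccat
RPL32, chr3:12836047-12841546 (minus strand): CCCTTCTCTCTTCCTCggcgctgc
RPS2, chr16:1962058-1964826 (minus strand): CTTCTTTTCCgacaaaacaccaaa

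The 25 other TOP mRNAs, mostly of translation factors, had a median of -0.23 (-0.38 relative to all mRNAs), 16 below 0 (36.5% of all mRNAs) and 1 past 2-fold lower (1.36%). This was EEF1G, a subunit of elongation factor 1, with 65.2 RPKM in Arg- and 27.4 in Leu-. EEF1A1, which delivers aminoacyl-tRNA to the ribosome, had 5936 RPKM in Arg-, 3545 in Leu- and 3764 in Suff, a ratio of -0.74. At the other end NPM1, a nucleolar chaperone, had 2512 RPKM in Arg- and 3943 in Leu-, a ratio of 0.65. The list was therefore less uniform than the ribosomal proteins. Mitochondrial ribosomal proteins, whose mRNAs are not TOP mRNAs as a class, had a median of 0.01 over 77 genes (-0.14 relative to all), with 38 below 0.

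Across all mRNAs the ratio ran weakly with arginine content. Over 7479 mRNAs with a coding sequence, the Spearman rho of the ratio with the arginine share of the protein was -0.15 and with the leucine share -0.048, given as a description since mRNAs of 1 pair of libraries share depth and base composition. Among 20 amino acids the arginine value was the second lowest, after proline at -0.17. The codons of arginine differed in sign: CGC gave -0.22, the lowest of all 61 codons, CGG -0.13, CGT -0.074, AGG -0.0074, CGA 0.0025 and AGA 0.090. The codons of leucine also differed in sign, with -0.12 for CTG, -0.093 for CTC, 0.053 for CTA, 0.059 for CTT, 0.096 for TTG and 0.11 for TTA. The share of G or C at the third codon position itself gave -0.15 and the coding length -0.17. In 3 equal classes of mRNAs by this share, the arginine rho was -0.045, -0.14 and -0.17 from low to high.

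Coding length divided the arginine relation most. In 3 equal classes by length, the shortest (median 204 codons) had a rho with the arginine share of -0.36, the middle class -0.11 and the longest class 0.058. Leaving out histones and TOP mRNAs gave -0.31 in the shortest class. In 10 equal classes of arginine share, the median ratio went from 0.29 in the lowest class, where arginine made up 2.95% of the codons at the median, to 0.023 in the highest, at 10.2%. The highest class, of 748 mRNAs, held 43 at least 2-fold lower and 15 higher. The lowest class, also of 748, held 2 lower and 52 higher. Over all mRNAs 1.36% were lower and 3.65% higher. Histones and TOP mRNAs were not left out of these classes. The median arginine share was 5.62% over all mRNAs compared, 4.89% over 270 of the 282 higher mRNAs and 8.14% over 98 of the 105 lower ones. Without histones and TOP mRNAs the lower ones had 6.94%.

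The same sign appeared inside groups that differ in their level. Over the 80 ribosomal proteins the rho with arginine share was -0.46 and over 32 splicing proteins -0.38, with no test. The median arginine share was 9.04% in the ribosomal proteins and 7.97% in the splicing proteins, against 5.62% over all mRNAs compared. Both lists were thus richer in arginine than all mRNAs, yet the splicing list had the highest median ratio of the lists (0.50). At the arginine-poor end, TXN, which encodes the redox protein thioredoxin, has no arginine codon among its 105 codons. TXN had 1294 RPKM in Arg-, 3821 in Leu-, 3802 in Suff and 1683 in Met-, so Leu- equalled Suff and exceeded Arg- 2.95-fold (2.70 to 3.23). RPLP1, a stalk protein of the large subunit without any arginine codon among 114, was picked out after its values were seen. It had 1866 RPKM in Arg-, 2943 in Leu- and 4269.7 in Suff, a ratio of 0.66 against the ribosomal protein median of -0.62. RPLP1 was not the highest of the 6 ribosomal proteins above 0. RPL36AL at 0.75 and RPS27L at 1.04 stood above it, and their arginine shares are not given here. The stretches of RPL37 and RPL39 richest in arginine, with arginine codons in capitals, stand beside the first 10 codons of TXN to show the contrast.
RPL37, codons 70 to 79: gtatacCGCAGAttcAGGcatggattcCGT
RPL39, codons 36 to 45: AGGtacaactccaaaAGGAGAcattggAGA
TXN, codons 1 to 10, transcript at chr9:110243810-110256507 (minus strand): atggtgaagcagatcgagagcaagactgct

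**Figure D2:**
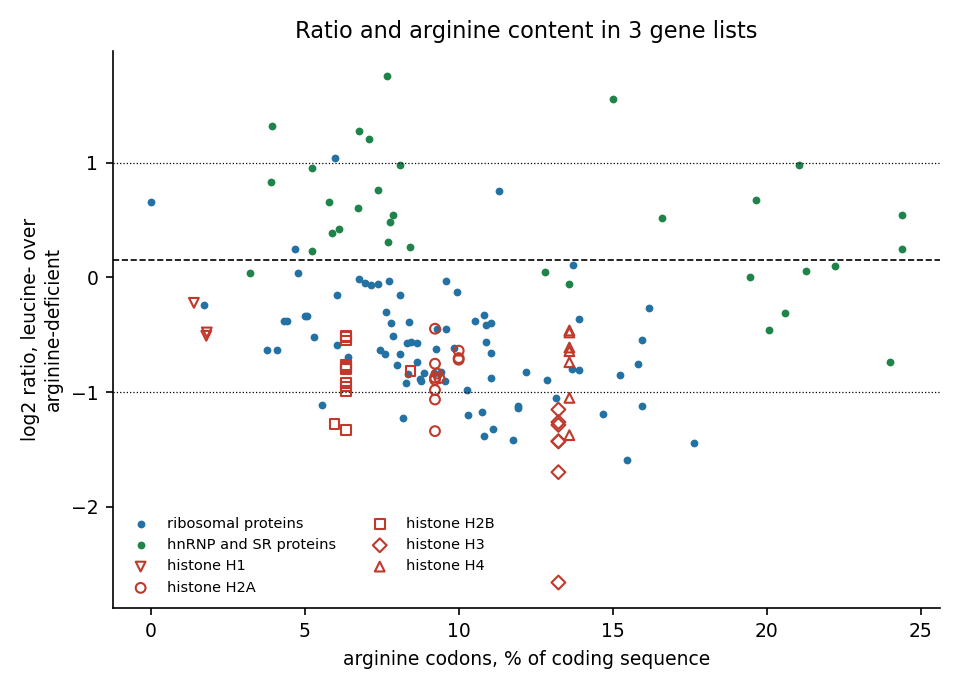
Arginine codons as a percentage of the coding sequence (horizontal) against the log2 ratio of leucine- over arginine-deficient medium (vertical) for histones by class, ribosomal proteins and hnRNP and SR proteins. The dashed line is the median of all mRNAs (0.15) and the dotted lines mark 2-fold. The 8 H3 genes (diamonds) all lie below -1 at 13.2% arginine, while the 8 H4 genes (triangles) at 13.6% have a median of -0.67.

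Splicing proteins were the list with the highest median. The hnRNP proteins coat new transcripts and the SR proteins, rich in arginine and serine, help to define exons. Over 32 hnRNP, SR and related genes the median was 0.50 (0.35 relative to all mRNAs), 28 were above 0, where 63.5% of all mRNAs were, and 5 were at least 2-fold higher against 3.65%. None was 2-fold lower. These 5 were HNRNPA3, U2AF1, HNRNPD, HNRNPH1 and HNRNPA2B1. The lowest was SRSF2 at -0.74, an SR protein with 23.98% arginine. Against the same Suff library the median of the list was 0.18 in Leu- and -0.40 in Arg-.

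HNRNPA3 had 489.8 RPKM in Arg-, 1653 in Leu-, 1684 in Suff and 524 in Met-. Leu- was level with Suff, Arg- with Met-, and Leu- exceeded Arg- 3.38-fold (3.13 to 3.64). HNRNPA2B1 had 1717 RPKM in Arg-, 3968 in Leu-, 2989 in Suff and 2122 in Met-, a ratio of 1.21. HNRNPD, which binds AU-rich elements, had 463 RPKM in Arg-, 1155 in Leu- and 943 in Suff. U2AF1, which recognises the end of introns, was low throughout, with 22.3 RPKM in Arg- and 67.5 in Leu- on 26 and 73 reads.

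The highest ratios, among mRNAs whose reads could be recovered and came to at least 30 in the pair, were of genes without a common function. KCNC4, a potassium channel, had 4.23 RPKM in Arg-, 41.3 in Leu-, 8.68 in Suff and 8.85 in Met-, on 13 and 118 reads in Arg- and Leu-. Leu- alone was high, 9.77-fold above Arg- (5.50 to 18.9). LSM4, of the Sm-like ring that binds U6 snRNA, had 757 RPKM in Arg-, 4187 in Leu-, 509.6 in Suff and 2762 in Met-. It was high in Leu- and Met- alike, and its ratio was 2.47. CNOT7, a deadenylase of the CCR4-NOT complex, had 14.5 RPKM in Arg-, 75.5 in Leu-, 50.1 in Suff and 88.6 in Met-. Arg- alone was low here, and Leu- exceeded it 5.22-fold (3.20 to 8.92). Others among the 12 highest were UBL3, PTMS, MAP2K6, HNRNPA1L2, NEDD8, TPD52, RAB40B and ATXN7L3, with ratios from 2.30 down to 1.81. NEDD8, the ubiquitin-like modifier of cullins, had 106 RPKM in Arg-, 407 in Leu-, 351 in Suff and 109 in Met-. HNRNPA1L2 is a close copy of HNRNPA1, and its reads are uncertain.

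Among the 12 lowest of the same mRNAs, 4 were H3 genes and 2 were RPL37 and RPL39. HOXD1, a homeobox transcription factor (chr2:176188668-176190907), had 3884 RPKM in Arg-, 720.2 in Leu- and 105.5 in Suff, and was not listed in Met- or in any of the libraries with cycloheximide used here. It was the highest in Arg- by far, 5.39-fold above Leu- (5.05 to 5.76), and its ratio was -2.43. MZF1, a zinc finger factor, had 33.2 RPKM in Arg- and 4.85 in Leu-, a ratio of -2.55 on 118 and 16 reads. TNFRSF12A, the receptor of the cytokine TWEAK, had 28.3 RPKM in Arg- and 4.91 in Leu-. CDC42EP3, DNLZ and UBALD1 completed the list with ratios between -1.52 and -1.49, each on fewer than 50 reads in the pair. NUP160, a nuclear pore protein, had 40.6 RPKM in Arg- and 12.4 in Leu-, a ratio of -1.64, but its reads could not be recovered and it was not ranked.

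**Figure D3:**
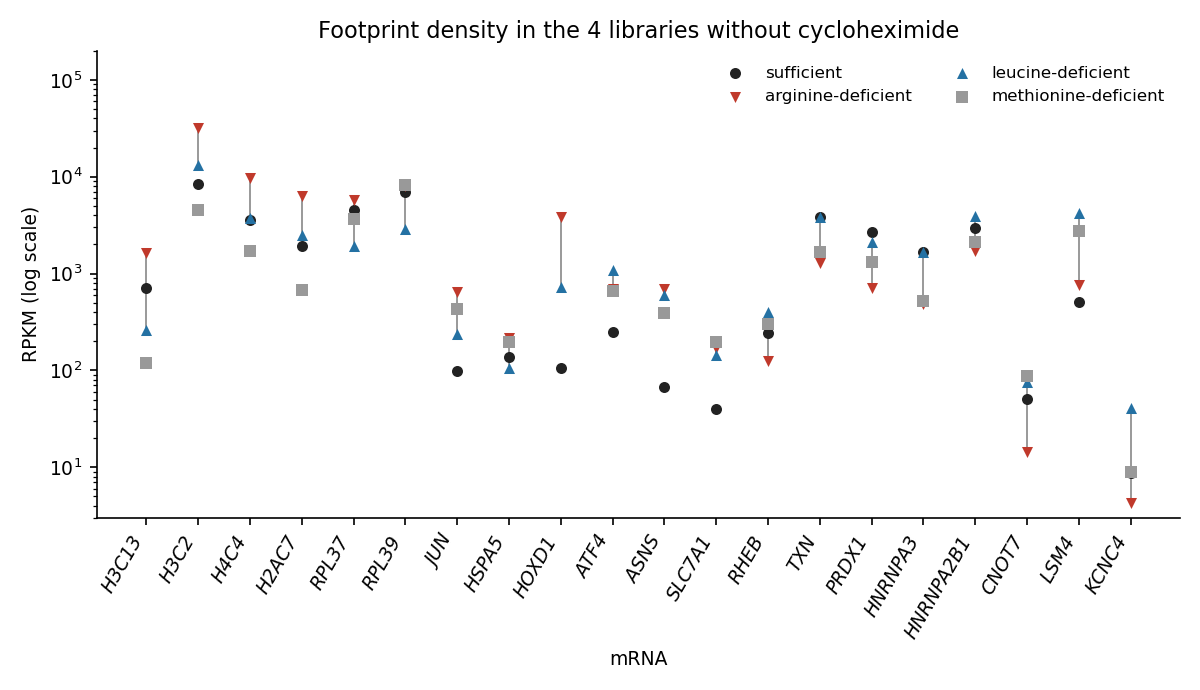
RPKM (log axis) of 20 mRNAs described in the text in the 4 libraries without cycloheximide, 1 library per condition, with a line joining the arginine-deficient and leucine-deficient values. For histones the arginine-deficient value is the highest of the 4, for ribosomal proteins the leucine-deficient value is the lowest, and for TXN, PRDX1 and HNRNPA3 the leucine-deficient value lies near the sufficient one.

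The ATF4 and CHOP targets, the core of the amino acid stress response, did not differ 2-fold between the deficiencies in any member. Of 40 genes 35 were compared, with a median of -0.08 (-0.23 relative to all mRNAs). None was at least 2-fold higher (3.65% of all mRNAs) or lower (1.36%), and 20 were below 0 (36.5%). Against the same Suff library, the median was 2.03 in Leu-, with 27 of 32 at least 2-fold higher (6.89% of all mRNAs), and 2.11 in Arg-, with 28 of 33 (8.33%). ASNS, asparagine synthetase, had 689 RPKM in Arg-, 607 in Leu- and 68.0 in Suff. SESN2, the leucine sensor Sestrin 2 and itself a target, had 237 in Arg-, 236 in Leu- and 53.4 in Suff, a Leu- to Arg- ratio of 0.996 on the linear scale (0.881 to 1.13). DDIT3, which encodes CHOP, had 101 in Arg-, 109.6 in Leu- and 4.40 in Suff. The lowest ratio was that of ATF3, a stress transcription factor, with 434 RPKM in Arg- and 228 in Leu-, at -0.93. CTH, which makes cysteine from cystathionine, followed in the same direction with 231 in Arg- and 141 in Leu-. The highest was ATF4 itself, with 700.2 RPKM in Arg-, 1098 in Leu-, 251 in Suff and 662 in Met-, a ratio of 0.65.

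Genes of the sensing and signalling steps lay mostly near the median of all mRNAs. For 36 genes of amino acid sensing and mTORC1 the median was 0.07 (-0.08 relative to all), with 3 at least 2-fold higher (3.65% of all mRNAs) and none lower (1.36%). RHEB, the small GTPase that switches mTORC1 on, had 125 RPKM in Arg-, 397 in Leu-, 244 in Suff and 302 in Met-. Arg- was the lowest and Leu- the highest of the 4, 3.17-fold apart (2.55 to 3.96). LAMTOR2 and LAMTOR5, of the lysosomal complex that holds the Rag GTPases, had ratios of 1.10 and 1.05, under 2-fold when centred. EIF4EBP1, the translation repressor that mTORC1 phosphorylates, was lowest at -0.76, with 1127 RPKM in Arg-, 664 in Leu- and 280.1 in Suff. The arginine sensor CASTOR1 was not listed in either library. For 13 genes of eIF2 kinases and phosphatase subunits the median was 0.31, from PPP1R15A at -0.83 to EIF2AK2 at 0.84.

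Genes that handle leucine or arginine themselves showed no large split. SLC7A1, the main carrier of arginine and lysine, had 170.2 RPKM in Arg-, 145 in Leu- and 40.3 in Suff. SLC7A5, the carrier of leucine and other large neutral amino acids, had 223 in Arg-, 333 in Leu- and 170.1 in Suff, a ratio of 0.58. ASS1, which makes argininosuccinate on the way to arginine, had 98.7 in Arg-, 97.6 in Leu-, 35.5 in Suff and 39.7 in Met-. Its ratio was -0.02, and the counting interval of the linear ratio, 0.803 to 1.22, included equality. ASL, the next enzyme, had 33.8 and 34.96 RPKM in Arg- and Leu-, and ARG2, the mitochondrial arginase, 39.6 and 30.1. BCAT1 and BCAT2, the transaminases of leucine, gave ratios of 0.60 and 0.43. The 24 genes of branched-chain amino acid catabolism had a median of 0.33 (0.18 relative to all mRNAs), with 21 above 0 (63.5% of all mRNAs). None was past 2-fold, where 3.65% of all mRNAs were higher and 1.36% lower. The cytosolic aminoacyl-tRNA synthetases had a median of 0.01 over 24 genes, or -0.14 relative to all mRNAs. LARS1, for leucine, had 97.2 RPKM in Arg- and 75.9 in Leu-, and RARS1, for arginine, 98.9 and 106. HARS1, for histidine, was the only one past 2-fold, with 51.5 RPKM in Arg-, 109.6 in Leu- and 103 in Suff, a ratio of 1.07 that fell under 2-fold when centred.

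Transporters at the plasma membrane had a median of 0.27 over 20 genes, with SLC16A10, an aromatic amino acid carrier, past 2-fold at 1.14 (under 2-fold when centred) and SLC7A3, another arginine carrier, lowest at -0.76. The 15 enzymes of arginine, proline and urea metabolism had a median of 0.05. PYCR3, which makes proline from ornithine-derived substrate, was past 2-fold with 26.7 RPKM in Arg-, 68.3 in Leu- and 64.4 in Suff. Among 14 polyamine genes, downstream of arginine and ornithine, the median was 0.12 and none was past 2-fold. All mRNAs together gave 3.65% at least 2-fold higher and 1.36% lower. Of 11 arginine methyltransferases PRMT2 was past 2-fold at 1.53, with 16.2 RPKM in Arg-, 48.8 in Leu- and 47.7 in Suff.

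PRDX1, a peroxiredoxin, had 717 RPKM in Arg-, 2104 in Leu-, 2697 in Suff and 1326 in Met-, 2.93-fold higher in Leu- than in Arg- (2.69 to 3.21). In the same list of 24 redox genes, whose median was 0.21, HMOX1, which breaks down haem, lay the other way with 39.4 RPKM in Arg- and 16.95 in Leu-. The 30 genes of cholesterol and fatty acid synthesis had a median of 0.37. ELOVL6, INSIG1 and STARD4 were at least 2-fold higher (3.65% of all mRNAs) and MVD 2-fold lower (1.36%). INSIG1 and STARD4 fell under 2-fold when centred. INSIG1, which retains SREBP in the ER, had 118 RPKM in Suff, 33.6 in Leu-, 14.9 in Arg- and 13.8 in Met-. HSPA5, the main chaperone of the ER, had 216 RPKM in Arg-, 107 in Leu-, 137 in Suff and 198 in Met-, 2.02-fold higher in Arg- than in Leu- (1.77 to 2.32). Its list of 25 ER folding genes had a median of -0.15, with no other member past 2-fold (3.65% of all mRNAs higher, 1.36% lower). JUN, an immediate-early transcription factor, had 638 RPKM in Arg-, 237 in Leu-, 99.8 in Suff and 426 in Met-. DUSP1, a phosphatase of the same early class, had 116 in Arg-, 50.2 in Leu-, 27.98 in Suff and 157 in Met-. These were the only ones past 2-fold, both lower in Leu- (1.36% of all mRNAs), of 15 short-lived growth transcription factors and relatives, whose median was -0.10.

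Oxidative phosphorylation subunits encoded in the nucleus had a median of 0.25 over 70 genes, with 3 at least 2-fold higher, a share near the 3.65% of all mRNAs. SDHD, of complex II, had 151 RPKM in Arg- and 306 in Leu- (under 2-fold when centred), and NDUFC2, of complex I, 50.01 and 117. NDUFA13 was listed in Leu- alone, at 70.8 RPKM, with 43.6 in Suff and 61.0 in Met-, so it was missing from Arg- only. NTF4, a neurotrophin, was likewise listed in Leu- alone of the pair, at 67.5 RPKM. In Arg- alone were MRPL33 of the mitochondrial ribosome at 44.3 RPKM, the adaptor gene BICDL2 at 34.1, and a transcript without a gene symbol here. The lowest count listed was 5 reads, so an unlisted gene can hold a few reads and no fold is given.

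**Figure D4:**
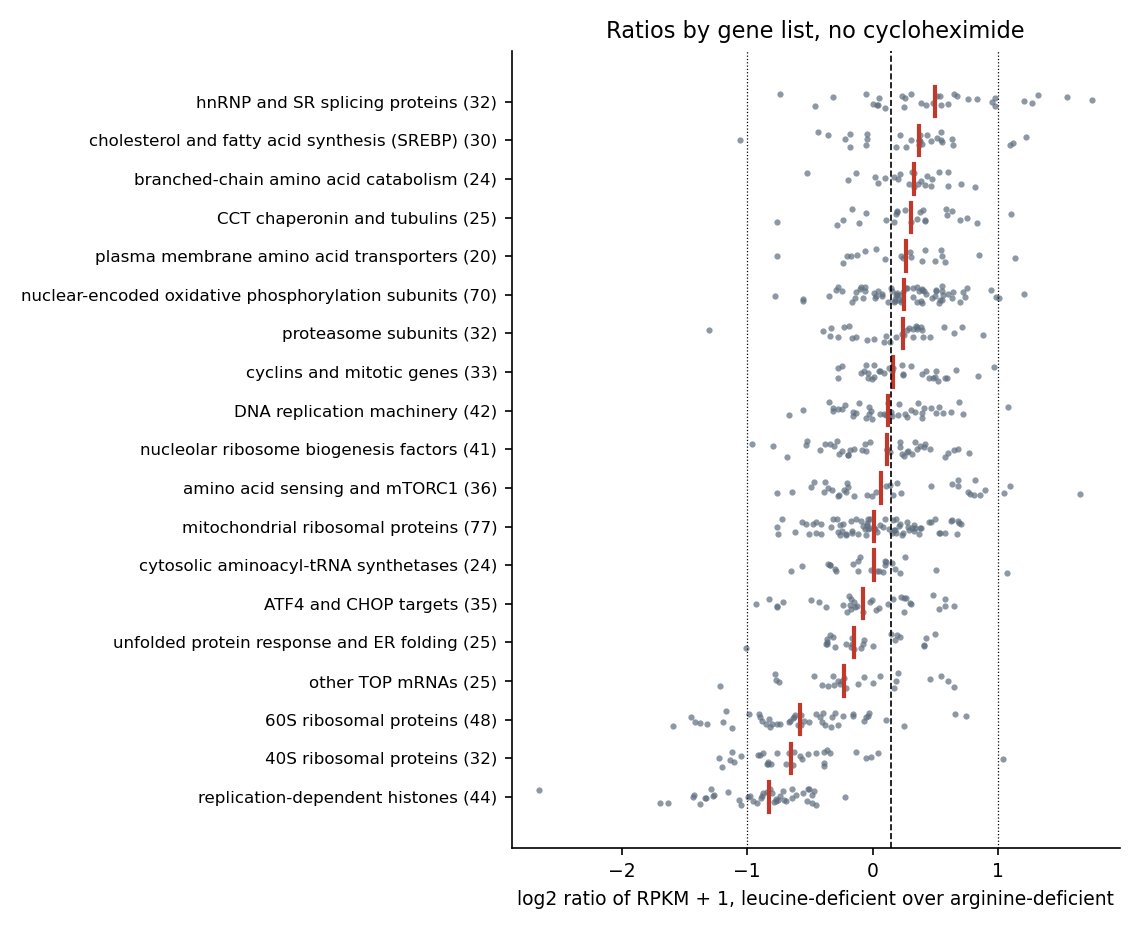
Log2 ratios of leucine- over arginine-deficient medium without cycloheximide for the members of 19 gene lists, with the number compared in brackets. Each point is an mRNA listed in both libraries, red bars are list medians, the dashed line is the median of all 7725 mRNAs (0.15) and dotted lines mark 2-fold. Histones, 40S and 60S ribosomal proteins have medians of -0.83, -0.65 and -0.58, and hnRNP and SR proteins of 0.50.

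By their medians, the mRNAs past 2-fold stood further from sufficient medium in Arg- than in Leu-. For the 282 higher in Leu- the median ratio to the same Suff library was 0.33 in Leu- and -0.94 in Arg-, where all mRNAs gave 0.18 and 0.02. For the 105 lower in Leu- it was -0.29 in Leu- and 1.02 in Arg-. The ribosomal proteins, with 14 members at least 2-fold lower, went otherwise as a list, with medians of -0.91 in Leu- and -0.27 in Arg-. These ratios share libraries with the comparison that chose the mRNAs and describe the levels only.

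The pair of Leu- and Arg- libraries made with cycloheximide shares no library with this pair. It differs in drug and in processing, listed no mRNA under 64 reads, and had 6434043 and 5010210 reads on coding sequences. Over 7155 genes its median ratio was 0.15 with an SD of 1.18, with 621 at least 2-fold higher (8.68%), 306 at least 2-fold lower (4.28%), and 284 not listed in 1 of its libraries. Across the 6622 genes compared in both pairs the rho of the ratios was 0.40, as a description over genes of 1 library each. Of 212 genes at least 2-fold higher without cycloheximide, 69 were so with it, where 562 of the 6622 genes were (8.49%), and 196 were above 0 (60.4% of the 6622). Of 69 at least 2-fold lower, 14 were so with it, where 288 of the 6622 were (4.35%), and 43 were below 0 (39.6%). The genes past 2-fold the same way in both pairs were thus 1.04% of the 6622 for higher and 0.211% for lower. Genes not listed in 1 library counted as 0 in these values. With only mRNAs listed in both libraries, the 83 past 2-fold the same way became 61.

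The groups differed in how far they kept their position with cycloheximide. Ribosomal proteins had a median of -0.48 there, with 64 of 80 below 0 (39.3% of all genes of that pair), and splicing proteins 0.33, with 22 of 31 above 0 (60.7%). The histones had a median of -0.04 over 48 genes with 28 below 0 (39.3%), and their share of the reads was 16.7% in Arg- and 14.5% in Leu-. The 8 H3 genes were all below 0 with cycloheximide as well, with a median of -0.63, while linker H1 genes had a median of 0.11. The targets of ATF4 and CHOP had a median of 0.08 over 34 genes, with 2 at least 2-fold higher (8.68%) and 9 lower (4.28%). ASNS, for example, had 618 RPKM in Arg- and 262 in Leu- with cycloheximide, a ratio of -1.23 against -0.18 without it. Cytosolic aminoacyl-tRNA synthetases had a median of -0.61 with cycloheximide, with 21 of 22 below 0, against 0.01 without it. Plasma membrane amino acid transporters had -0.50 over 17 genes against 0.27, and heat shock chaperones -0.60 over 16 against 0.30. The difference between the pairs was not tested.

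Single mRNAs that were past 2-fold the same way in both pairs included CNOT7, with 15.6 RPKM in Arg- and 67.3 in Leu- with cycloheximide. CSK, the kinase that restrains SRC, had 24.8 RPKM in Arg- and 84.9 in Leu- without the drug and 26.3 and 86.5 with it. H3C13 had a ratio of -1.60 with cycloheximide, and JUN of -1.39, with 265 RPKM in Arg- and 101 in Leu-. NUP160 and NUP188, another nuclear pore protein, had ratios of -1.64 and -1.26 without and -1.44 and -1.89 with cycloheximide. TRIQK, UBL3 and ACVR2B also qualified, but were not listed in Arg- with cycloheximide, and TRIQK not in Arg- without it either. LSM4 did not reach 2-fold with cycloheximide, at 0.54, and TXN and PRDX1 gave 0.85 and 1.10.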

How the data were processed

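Pooled ribosome fractions of HEK293T cells were digested with RNase I by the authors, and the protected fragments were tailed, reverse transcribed and sequenced. According to the methods and the submitters' notes, reads were trimmed, aligned to the human transcriptome (GRCh38) with Bowtie without mismatches, and uniquely mapped reads were kept. The files deposited by the authors give RPKM for each Ensembl transcript, 1 library per condition, and per the records duplicates had been removed without cycloheximide. The annotation release is not given in the sources used here.

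Transcripts were matched to GENCODE release 44 (96.7% of those in each library of the pair) for symbols, lengths and codons. Unmatched transcripts kept their identifiers. The pair was compared over the highest transcript of each gene, with a mean RPKM of at least 10 and a pseudocount of 1, which understates the change of low mRNAs. No test was possible with 1 library a side. Reads recovered from RPKM steps gave exact intervals, which cover counting error only, since reads carry no molecular identifiers. The members and the 40 gene lists were chosen with earlier results of these data known. Named were the 12 highest and 12 lowest mRNAs with at least 30 reads in the pair, the 5 highest and lowest past 2-fold the same way with cycloheximide, the extremes and the members past 2-fold of each list, genes of arginine and leucine handling, and the 5 densest mRNAs listed in 1 library alone. Other members of the histone, TOP, splicing and ATF4 lists named as examples (RPLP1, EEF1A1, CTH, DDIT3 among them) were picked after their values were seen. A few mRNAs that the rule names are not reported here. Recomputed were the counts past 2-fold and the medians of all mRNAs and of the ATF4, TOP, histone and splicing lists. The rho values with arginine and leucine share and the ratios of 103 single mRNAs, not of every mRNA named, were also recomputed. This was done without a filter, with a minimum mean of 50 RPKM, a pseudocount of 0.1, summed transcripts and genes listed in both libraries. Summing could change almost nothing in the pair, which listed 10974 transcripts for 10974 genes in Arg- and 10963 for 10962 in Leu-. Ratios were centred on the median of all mRNAs for all but the rho values and that median, ribosomal proteins were taken alone for the TOP median, and histones and TOP mRNAs were left out for the rho values. Scripts were tested on simulated data. The tools were scipy 1.17.1, pandas 2.3.3 and numpy 2.4.6 under Python 3.11.15, with matplotlib 3.10.9 for figures.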

Additional observations from a re-analysis of the deposited data

Results flagged for a closer look

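The 5 mRNAs past 2-fold in opposite ways without and with cycloheximide were picked out because the sign of the Leu- over Arg- ratio differed between the pairs, and this difference was not tested. C1orf53 had a log2 ratio of -1.02 without cycloheximide and 4.82 with it, MAFG -1.21 and 4.93, NUDT11 -1.05 and 5.04, and ZBED3 -1.19 and 5.09. These 4 mRNAs were not listed in Arg- with cycloheximide, where the lowest count listed was 64 reads. MT-ND6, a mitochondrially encoded subunit of complex I, had 1.24 without cycloheximide and -1.15 with it. It was listed in all 4 libraries concerned, at 119 RPKM in Arg- and 284 in Leu- without the drug, and at 668 and 299.8 with it.

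Relations across mRNAs with arginine content and with base composition also had opposite signs in the pairs, and the difference was not tested. The rho of the ratio with the arginine share was -0.15 without cycloheximide and 0.12 with it. The rho with GC at the third codon position was -0.15 without and 0.29 with it. Coding length had the same sign in both, -0.17 and -0.41. In the shortest of 3 equal classes by coding length the arginine rho was -0.36 without cycloheximide and -0.068 with it, and in the longest 0.058 and 0.26.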

How the results depend on the processing

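No summary value reversed in any of 60 recalculations, and 45 of them stayed within their range. The 45 include those with summed transcripts, which could hardly differ because nearly every gene of the pair had 1 transcript listed. With a minimum mean of 50 RPKM, 102 mRNAs were at least 2-fold higher, 41 at least 2-fold lower and 33 past 2-fold the same way with cycloheximide, and the median was 0.19, the arginine rho -0.22 and the leucine rho -0.023. With no filter these were 721 higher, 499 lower and 149 the same way, with a median of 0.11 and an arginine rho of -0.12. Centring gave 169 higher and 163 lower, and medians of -0.23 for ATF4 and CHOP targets and -0.66 for TOP mRNAs. Centring moves every ratio by 0.15, and the cause of the other changes was not tested. Of the 103 single mRNAs recomputed, 91 were past 2-fold. Of these, 12 fell under it, only when centred, and none changed sign. No paired analysis was possible because each condition had 1 library. With 1 library a side, differences between cultures, preparations and conditions cannot be told apart. Near-identical histone and ribosomal protein copies, genes with few reads (5 at the least) and the single transcript listed for nearly every gene of the pair limit single values. Positions of footprints along mRNAs were not used here.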

Other observations

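Several further gene groups lay close to the median of all mRNAs (0.15) between leucine- and arginine-deficient cells. Their members past 2-fold stand beside 3.65% higher and 1.36% lower over all mRNAs. Proteasome subunits had a median of 0.25 over 32 genes, and PSMA6 was the only member past 2-fold, at -1.31 with 45.0 RPKM in Arg- and 17.6 in Leu-. Lysosomal genes had a median of 0.09 over 37, with ATP6V1D and ATP6V0E1, both of the proton pump V-ATPase, at 1.37 and 1.20. Autophagy genes had a median of 0.14 over 20, and GABARAPL1, which is joined to autophagosome membranes, was past 2-fold at -1.12. Glycolysis and hypoxia-linked genes gave 0.26 over 20, with NDRG1 at 1.12, and p53 targets 0.30 over 13, with PHLDA3 at 1.26. The CCT chaperonin and tubulins gave 0.31 over 25, with PDCL3, a folding partner of CCT, at 1.10, and heat shock chaperones 0.30 over 18, with HSF1, the factor that switches them on, at 1.06. NDRG1, PDCL3 and HSF1 fell under 2-fold when ratios were centred. Genes of the methionine cycle and transsulfuration gave 0.01 over 13, with ENOPH1, of methionine salvage, at 1.21.

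No member was past 2-fold among nucleolar ribosome biogenesis factors (median 0.11 over 41), serine and one-carbon enzymes (0.24 over 18), purine and pyrimidine synthesis (0.22 over 18), asparagine, glutamine and aspartate enzymes (0.11 over 10), mitochondrial aminoacyl-tRNA synthetases (-0.10 over 16), ribosome quality control (0.06 over 23) and the BCL2 family (-0.0011 over 13). Over all mRNAs 3.65% were at least 2-fold higher and 1.36% lower, so lists of this size would hold few such members or none. Of 7 mitochondrially encoded subunits, with a median of 0.08, MT-ND6 alone was past 2-fold, at 1.24.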
